A study of Malus domestica with 18 samples.

Results

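Saur, an apple gene named for its homology to the small auxin up-regulated RNA family, was quantified by RT-qPCR in axes dissected from apple (Malus domestica) embryos, whose seeds had been artificially aged and which were then given nitric oxide (NO) or no NO. It was 1 of 20 genes measured, of which 18 were target genes and 2, Sar1 and Pdi, were reference genes, and it was taken by its gene name in the deposited tables, not by any value. Its gene model is MDP0000807487 in the primer list of the study, and its position in the genome was not analysed here. The seeds were aged at 33 °C for 7, 14 or 21 days. Isolated embryos were then fumigated for 3 h with NO released from 14.5 mM NaNO2 acidified with 0.2 M HCl (NO-treated axes), or were aged for the same time and left unfumigated (control axes), and all were cultured for 48 h at 25 °C by day and 20 °C by night before RNA was taken. Each of the 6 groups had 3 samples, each a pool of many axes, so the values are averages over embryos and over the tissues of the axis. All groups were aged, so no comparison here is with unaged seeds, and none of the 20 genes is a marker by which the dissected tissue could be checked.

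Small auxin up-regulated RNA genes form a large plant-specific family whose transcripts accumulate within minutes of an auxin stimulus and are short-lived. In Arabidopsis, several members promote cell expansion by keeping a class of phosphatases from switching off the proton pump of the plasma membrane, which acidifies and loosens the cell wall. The Arabidopsis gene SAUR36, the member to which this apple gene was matched in the study, is known from work on leaf senescence and on the elongation of the seedling axis. Extension of the axis is the first visible step of germination.

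The Saur signal is defined by the primer pair that amplified it, and its normalised level also depends on the primer pairs of the reference genes Sar1, which encodes a small GTP-binding protein of vesicle traffic, and Pdi, which encodes a protein disulfide isomerase that helps secreted proteins fold. The 3 pairs are shown, 5′ to 3′, because they are the sequences on which every value below rests.
Saur forward: catgtcaaggctgctcacctgg
Saur reverse: ccaaccgcttgtaacccgac
Sar1 forward: ttgatttgggcgggcatcagattg
Sar1 reverse: tcatcagagaggagagcatccagc
Pdi forward: tgctgtacacagccaacgat
Pdi reverse: catctttagcggcgttatccttg
The Saur primers had 22 and 20 bases with a GC content of 59.1% and 60.0%, against 50.0% and 54.2% for Sar1 and 50.0% and 47.8% for Pdi.

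The quantification cycle (Cq) is the PCR cycle at which the product crosses a fixed brightness, so that a later cycle stands for less starting template. After 7 days of aging Saur crossed at 23.68, 24.06 and 23.90 cycles in NO-treated axes and at 24.36, 24.20 and 24.09 cycles in control axes. After 14 days it crossed at 26.07, 26.01 and 25.80 cycles in NO-treated axes and at 25.33, 25.50 and 25.42 cycles in control axes. After 21 days it crossed at 24.06, 24.35 and 24.38 cycles in NO-treated axes and at 24.98, 24.94 and 24.70 cycles in control axes. The NO-treated samples thus crossed earlier than every control sample at 7 and 21 days and later than every control sample at 14 days. The mean of the 2 reference genes crossed at 23.33 ± 0.09 cycles in NO-treated and 23.52 ± 0.14 in control axes at 7 days, at 24.14 ± 0.06 and 24.24 ± 0.09 at 14 days, and at 24.01 ± 0.18 and 24.02 ± 0.03 at 21 days (SD, n = 3 each). Between NO-treated and control axes of 1 day the reference mean differed by at most 0.19 cycles in size (-0.19 at 7 days, -0.10 at 14 days and -0.01 at 21 days), while the Saur cycles differed by -0.34, 0.55 and -0.61.

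**Figure D1:**
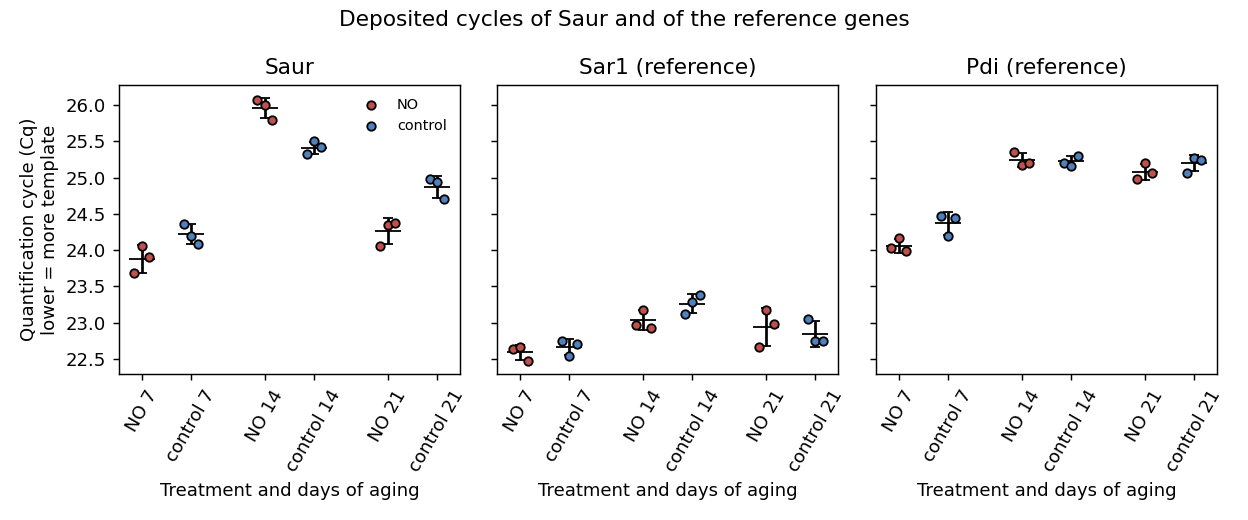
Quantification cycles in each sample for Saur and for both reference genes, by group (3 samples a group, NO-treated left of control at each day). Higher points are later cycles and mean less transcript. Saur in NO-treated axes sits between 25.80 and 26.07 cycles at 14 days, above every other group in the plot of Saur. At 21 days it sits between 24.06 and 24.38 cycles.

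In NO-treated axes Saur was lower than in control axes after 14 days of aging, higher than in control axes after 21 days, and not separable from control axes after 7 days. These values are the deposited relative expression, a ratio in which the control axes of each day average about 1. At 14 days Saur stood at 0.605, 0.639 and 0.679 in NO-treated axes, against 1.01, 0.935 and 1.06 in control axes. All 3 NO-treated samples lay below all 3 control samples. The means were 0.641 ± 0.037 in NO-treated and 1.001 ± 0.064 in control axes (SD, n = 3 each), a log2 difference of -0.64 (SE 0.12, 95% interval -0.89 to -0.40), or 0.640-fold, with an adjusted p of 5.67e-05 in limma. At 14 days 8 of the 18 target genes passed the test (44.4%), and Saur ranked sixth of them by the size of its difference. In whole axes, fewer cells that carry the transcript and less transcript in each cell cannot be told apart.

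At 21 days Saur stood at 1.51, 1.60 and 1.40 in NO-treated axes, against 0.957, 0.942 and 1.11 in control axes. The groups did not overlap, and here the NO-treated samples were the higher ones. The means were 1.502 ± 0.10 in NO-treated and 1.003 ± 0.092 in control axes (SD, n = 3 each), a log2 difference of 0.59 (SE 0.12, 95% interval 0.34 to 0.83), with an adjusted p of 2.17e-04 in limma. Again 8 of 18 genes passed (44.4%). By the exact permutation test of the 6 samples, two-sided, the difference at 14 days and that at 21 days each had p = 0.1, the smallest that 3 samples against 3 allow.

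At 7 days Saur stood at 1.27, 1.04 and 1.02 in NO-treated axes, against 0.965, 0.908 and 1.14 in control axes. The groups overlapped, since 1 control sample lay above 2 of the NO-treated samples. The means were 1.11 ± 0.14 in NO-treated and 1.005 ± 0.12 in control axes (SD, n = 3 each), and the log2 difference of 0.14 (SE 0.12, limma adjusted p = 0.297) had a 95% interval of -0.10 to 0.39. It was 0.04 without replicate 1 of the NO-treated axes and 0.24 without replicate 3 of the controls, and passed in neither case. At this day 6 of 18 genes passed (33.3%). The NO-treated samples did separate from the controls in the Saur cycles alone, and without any reference gene the log2 difference of 0.34 passed the test (limma adjusted p = 0.022). The mean of the reference genes in NO-treated axes crossed 0.19 cycles earlier than in controls at that day. With Sar1 alone the log2 difference of Saur was 0.26 (limma adjusted p = 0.213), and with Pdi alone it was 0.03 (adjusted p = 0.872).

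**Figure D2:**
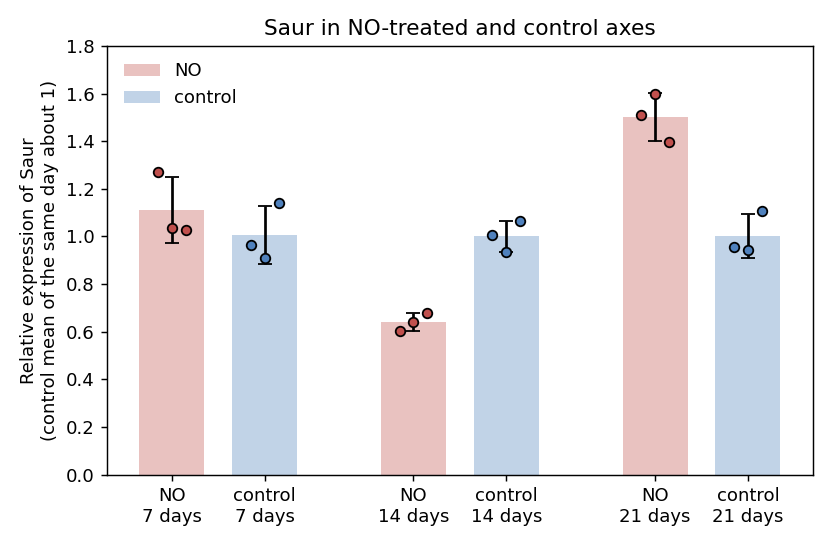
Deposited relative expression of Saur in each sample (points) with the group mean and SD (n = 3 each), NO-treated left of control axes at each length of aging and the control axes of that day set to about 1. NO-treated samples lie at 0.605 to 0.679 after 14 days and at 1.40 to 1.60 after 21 days, outside the control samples of the same day on opposite sides.

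The difference between NO-treated and control axes was itself compared between lengths of aging, as a difference of differences on the log2 scale. It was 0.79 lower at 14 days than at 7 days (-0.79, SE 0.17, 95% interval -1.13 to -0.44, limma adjusted p = 3.84e-04), where 61.1% of the target genes passed. It was 1.23 higher at 21 days than at 14 days (SE 0.17, 95% interval 0.88 to 1.57, limma adjusted p = 9.40e-07), where 50.0% passed. Between 21 and 7 days it differed by 0.44 (SE 0.17, 95% interval 0.09 to 0.79), and this missed the threshold (limma adjusted p = 0.0536), where 16.7% of the genes (3 of 18) passed. This last comparison was unstable on both counts: Saur passed on the linear scale (limma adjusted p = 0.0221), with centring (2.35e-04) and without any 1 of 5 samples (0.0151 to 0.0496), namely replicate 2 of the 7-day controls, replicate 3 of the 21-day controls, and replicate 1 at 7 days, replicate 1 at 14 days or replicate 3 at 21 days of the NO-treated axes. The number of genes called ran from 2 to 10 over all alternatives. Saur was the single one of the 18 target genes called lower in NO-treated axes at 14 days and higher at 21 days. Lea2a, a gene of the late embryogenesis abundant class named after its values were seen, came near that pattern. It was called lower at 14 days (log2 -0.49, limma adjusted p = 0.0286) and missed the threshold at 21 days (0.39, adjusted p = 0.0759). Its shift between 14 and 21 days passed (0.89, adjusted p = 0.00591), so the change of direction is not particular to Saur. The opposite order, higher at 14 and lower at 21 days, was found in 2 genes, the heat shock protein genes Hsp20a and Hsp70c, whose products are chaperones and which are named here after their values were seen. The other comparisons of days share their 7-, 14- or 21-day samples with these, so they are not separate observations.

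For the course over aging, the level of Saur was computed from the cycles against the mean of Sar1 and Pdi, with the control axes of 7 days averaging 1 on the log scale. In NO-treated axes Saur was lower at 14 days than at 7 or 21 days. The levels were 1.28, 1.04 and 1.03 at 7 days, 0.434, 0.457 and 0.488 at 14 days, and 1.38, 1.45 and 1.26 at 21 days. Every 14-day sample lay below every sample of the other days, whereas the 7- and 21-day samples overlapped. Between 14 and 7 days the log2 difference was -1.27 (SE 0.13, 95% interval -1.54 to -1.01, limma adjusted p = 1.17e-09), or 0.414-fold, and 66.7% of the target genes passed. Between 21 and 14 days it was 1.57 (SE 0.13, 95% interval 1.30 to 1.83, limma adjusted p = 7.47e-12), or 2.96-fold, where 94.4% passed.

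Between 21 and 7 days in NO-treated axes the Saur level differed by 0.30 on the log2 scale (SE 0.13, 95% interval 0.03 to 0.56), and this passed the test only narrowly (limma adjusted p = 0.0415), where 77.8% of the genes passed. The exact permutation test of the same 6 samples, two-sided, gave p = 0.2, and the call was lost when any 1 of 4 samples was left out (limma adjusted p of 0.136 without replicate 2 and 0.118 without replicate 3 of the 7-day NO-treated axes, 0.0716 without replicate 1 and 0.112 without replicate 2 of the 21-day ones).

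In control axes the range over days was narrower. The Saur levels were 0.963, 0.907 and 1.15 at 7 days, 0.726, 0.673 and 0.767 at 14 days, and 0.858, 0.849 and 1.002 at 21 days. The 14-day samples lay below all others, and the 7- and 21-day samples overlapped. Between 14 and 7 days the log2 difference was -0.47 (SE 0.13, 95% interval -0.74 to -0.21, limma adjusted p = 0.00201), or 0.721-fold, while 77.8% of the genes passed. Between 21 and 14 days it was 0.32 (SE 0.13, 95% interval 0.05 to 0.59, limma adjusted p = 0.0223), where 88.9% passed. This call was lost without replicate 2 of the 14-day controls (limma adjusted p = 0.0894) or without replicate 3 of the 21-day controls (0.121), and with Sar1 as the only reference gene (log2 0.13, limma adjusted p = 0.477). Between 21 and 7 days the log2 difference of -0.15 (SE 0.13, 95% interval -0.42 to 0.11) did not pass (limma adjusted p = 0.283), where 72.2% of the genes did. It ran from -0.23 without replicate 3 of the 21-day controls to -0.05 without replicate 3 of the 7-day controls.

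**Figure D3:**
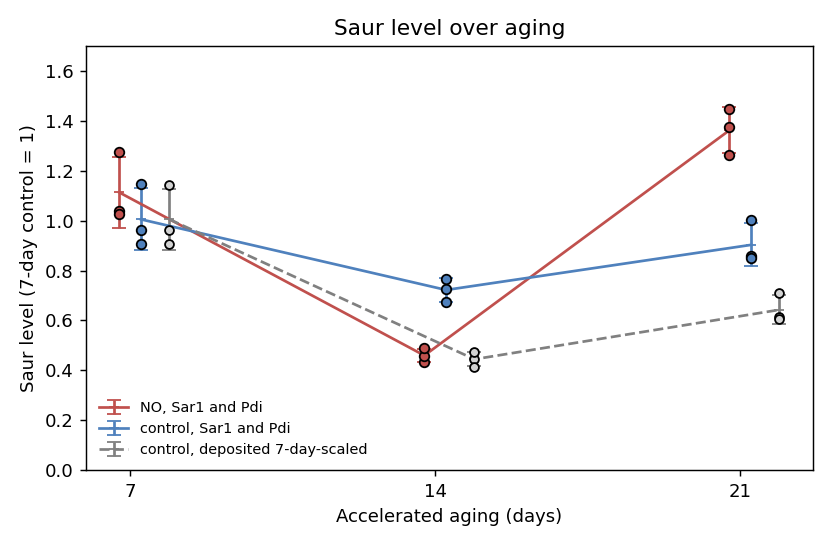
Level of Saur computed from the cycles against the mean of Sar1 and Pdi (7-day control axes = 1), in each sample with the mean of its group (3 samples each), against days of accelerated aging. On this scale the NO-treated samples lie at 0.434 to 0.488 at 14 days and at 1.26 to 1.45 at 21 days. The control samples of all days lie between 0.673 and 1.15 on it. A dashed grey line shows the deposited control course scaled to 7 days, with samples at 0.415 to 0.472 at 14 days and 0.604 to 0.711 at 21 days.

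Ordered by geometric mean on this scale, Saur was lowest in 14-day NO-treated axes (0.459), followed by 14-day control axes (0.721), 21-day control axes (0.9004), 7-day control axes (set to 1), 7-day NO-treated axes (1.11) and 21-day NO-treated axes (1.36). The highest and lowest groups were both NO-treated. Among neighbours in this order, 3 steps did not exceed the spread between samples or overlapped: 7-day over 21-day control axes (log2 0.15, limma adjusted p = 0.283), 7-day NO-treated over 7-day control axes (0.15, adjusted p = 0.365) and, with overlapping samples although past the threshold, 21-day over 7-day NO-treated axes (0.30, adjusted p = 0.0415). The steps from 14-day control over 14-day NO-treated axes (log2 0.65, limma adjusted p = 9.84e-05) and from 21-day over 14-day control axes (0.32, adjusted p = 0.0223) had no overlap.

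The reference genes themselves moved with aging, and the direction or the call of several comparisons of days changed with the choice of reference gene. In control axes Sar1 crossed 0.60 cycles later and Pdi 0.86 cycles later at 14 than at 7 days, and Sar1 0.18 and Pdi 0.83 cycles later at 21 than at 7 days. Saur crossed 1.197 and 0.66 cycles later at the same days. For control axes at 21 against 7 days, Saur was called lower with Sar1 alone (log2 -0.48, limma adjusted p = 0.00848) and with no reference gene (-0.66, adjusted p = 5.59e-05). With Pdi alone the direction turned (0.17, adjusted p = 0.286), and with each sample centred on the mean of the 18 target genes Saur was called higher (0.32, adjusted p = 0.0175). Centring also ended the call at 14 against 7 days in control axes (-0.14, limma adjusted p = 0.269). Relative to Sar1 and Pdi the median of the 18 target genes was itself shifted, by -0.32 between 21 and 7 days in control axes and by -0.50 in NO-treated axes.

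The deposited tables also hold a control course scaled to 7 days, in which Saur was 0.965, 0.908 and 1.14 at 7 days, 0.446, 0.415 and 0.472 at 14 days, and 0.614, 0.604 and 0.711 at 21 days. These values were far below the ones normalised to Sar1 and Pdi at 14 and 21 days, by 0.70 and 0.49 on the log2 scale. Their log2 differences from 7 days, -1.17 at 14 days (limma adjusted p = 2.07e-07) and -0.64 at 21 days (1.36e-04), were close to those of the Saur cycles with no reference gene, -1.197 and -0.66. On that scale the lower Saur level of control axes at 21 than at 7 days passed the test. With the mean of Sar1 and Pdi subtracted, the difference of -0.15 did not. In the deposited 7-day-scaled course, Sar1 and Pdi themselves keep the values they have against controls of their own day. At 14 days Pdi stood at 1.008, 1.042 and 0.951 in both ratios. The later cycles of the reference genes at 14 and 21 days therefore do not show in that course. How it was scaled was not tested.

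In NO-treated axes the step between 14 and 7 days and the step between 21 and 14 days kept their direction and passed with every choice of reference gene, with log2 differences of -2.08 to -0.90 and 1.52 to 2.17. The comparison of 21 with 7 days did not keep its direction. It was 0.63 with Pdi alone, -0.035 with Sar1 alone (limma adjusted p = 0.834), -0.39 with no reference gene (adjusted p = 0.00544) and 1.14 with centring on the target genes (adjusted p = 1.10e-08). The lower level in NO-treated axes at 14 days (-0.78 to -0.52) and the higher level at 21 days (0.49 to 1.13) passed with every choice.

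**Figure D4:**
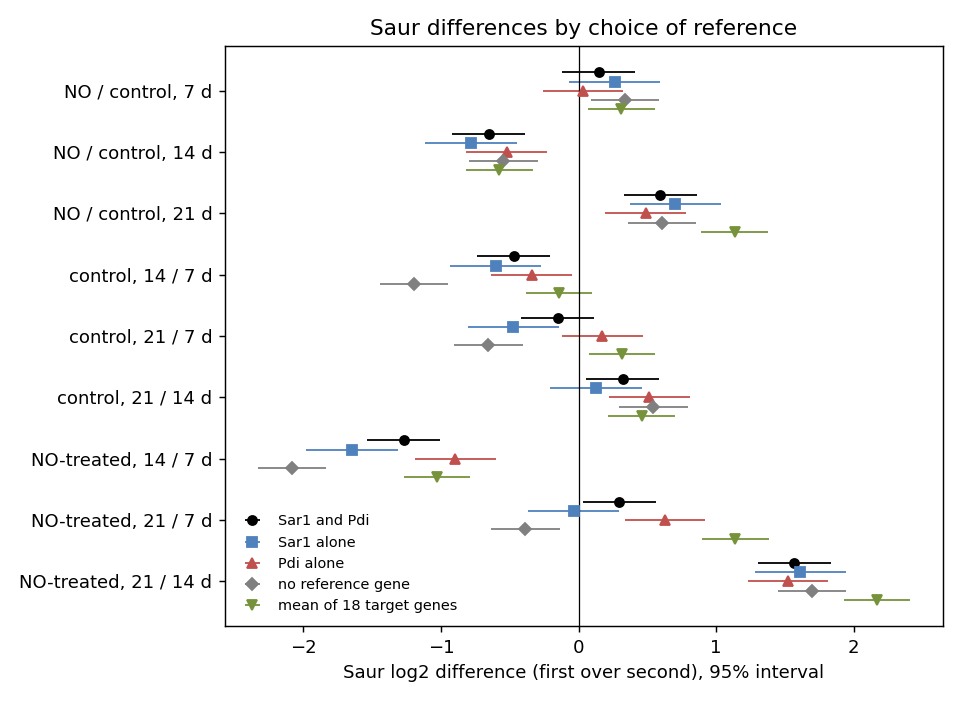
Log2 differences of Saur with 95% intervals from limma for each comparison under 5 ways of normalising the cycles (mean of Sar1 and Pdi, Sar1 alone, Pdi alone, no reference gene, centring on the 18 target genes). Intervals for NO-treated against control axes lie below 0 at 14 days and above 0 at 21 days in all 5, whereas those for 21 against 7 days fall on both sides of 0.

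Tor and Raptor were measured alongside Saur. Tor encodes a kinase that couples growth to nutrients and energy, and Raptor encodes the partner protein that brings substrates to it. Tor relative expression was 0.308 ± 0.044, 0.2501 ± 0.063 and 0.349 ± 0.053 in NO-treated axes of 7, 14 and 21 days, against about 1.01 in control axes of each day (SD, n = 3 each). It was thus lower in NO-treated axes at every day, with log2 differences of -1.71, -2.03 and -1.53 (limma adjusted p of 9.11e-08, 1.34e-09 and 1.99e-07). Raptor was 0.375 ± 0.098, 0.894 ± 0.14 and 0.265 ± 0.0065 in NO-treated axes, against about 1 in control axes of each day (SD, n = 3 each).

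Raptor was called lower in NO-treated axes at 7 days (log2 -1.45, limma adjusted p = 1.31e-07) and at 21 days (-1.92, adjusted p = 1.87e-09) but not at 14 days (-0.17, adjusted p = 0.392). At 14 days, where Saur was lower, Raptor did not pass, and at 21 days, where Saur was higher, both Tor and Raptor were lower. Between 21 and 14 days the difference between treatments shifted by 1.23 for Saur, by -1.74 for Raptor (limma adjusted p = 9.40e-07) and by 0.50 for Tor, which did not pass (adjusted p = 0.113). The deposited relative expression of Saur followed its cycles closely, with a root mean square difference of 0.007 on the log2 scale, against 0.24 for Tor and 0.21 for Raptor. Computed from the cycles against Sar1 and Pdi, the log2 differences were -2.04, -2.16 and -1.79 for Tor and -1.73, -0.26 and -2.12 for Raptor, with the same calls.

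Over days, Tor had a dip at 14 days in both treatments, as Saur did. The dip was not particular to these genes, since the chaperonin genes Cpn60a and Cpn60b, described below, also had it in both treatments. Tor crossed late in 14-day NO-treated axes, between 29.85 and 30.43 cycles. The steps below are given with the mean of Sar1 and Pdi only. In NO-treated axes Tor differed by -1.38 on the log2 scale between 14 and 7 days (limma adjusted p = 5.79e-08) and by 1.94 between 21 and 14 days (adjusted p = 7.92e-11). In control axes the same steps were -1.26 (limma adjusted p = 3.80e-07) and 1.56 (adjusted p = 7.43e-09). Raptor ran the other way in NO-treated axes, with log2 differences of 1.15 between 14 and 7 days (limma adjusted p = 4.43e-08) and -1.76 between 21 and 14 days (adjusted p = 7.47e-12). In control axes Raptor was lower at 14 than at 7 days, as Saur was (-0.33, limma adjusted p = 0.0415), and differed by 0.11 between 21 and 14 days (adjusted p = 0.496).

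Likeness to Saur was measured as the correlation of group means of log2 level over the 6 groups, as a description. The points share the reference cycles subtracted from every gene. The highest values among the 17 other target genes were those of Cpn60a (r = 0.68), Cpn60b (0.60) and Tor (0.51), where the Cpn60 genes encode chaperonins, ring-shaped complexes that fold proteins in organelles. Over the 18 samples the same genes gave 0.65, 0.55 and 0.48. The lowest value was that of Hsp20b, a small heat shock protein gene (r = -0.90), and it did not outlast a change of reference: with no reference gene it was 0.19 and with centring 0.07. Cpn60a and Cpn60b stayed at 0.76 to 0.85 under those alternatives, and Tor at 0.49 to 0.59. The order of the most similar genes changed too, since Lea2b, a gene of the late embryogenesis abundant class named here after its values were seen, had r = 0.27 with Sar1 and Pdi but 0.83 with no reference gene, above Cpn60b and Tor, and 0.66 with centring, above Tor. Raptor, at -0.56, ranked 12 among the 17.

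**Figure D5:**
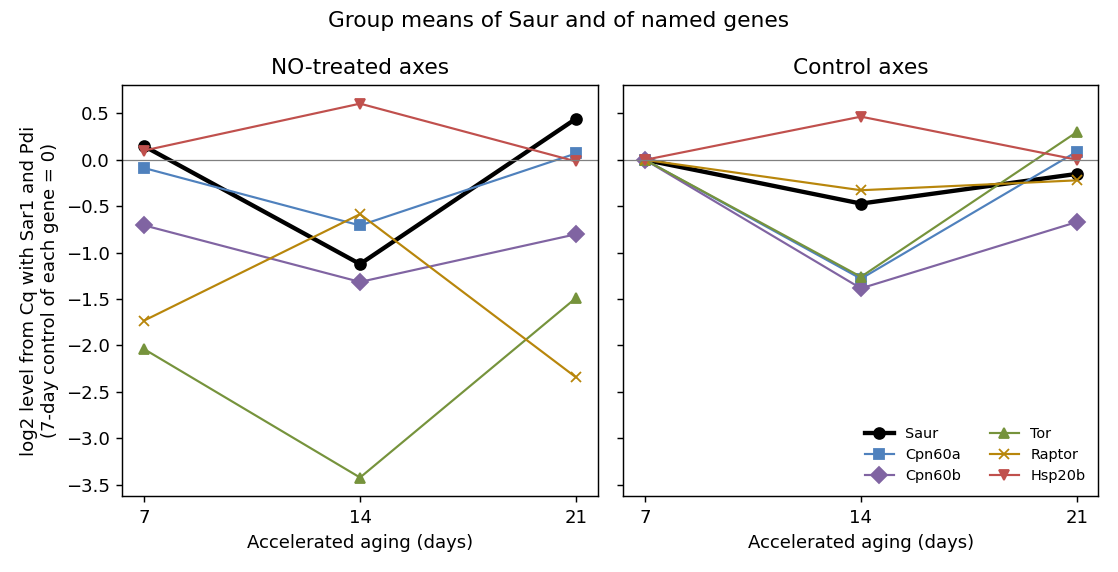
Log2 level from the cycles against Sar1 and Pdi (group means of 3 samples, 7-day control axes of each gene = 0) over days of aging, in NO-treated axes (left) and control axes (right), for Saur, the 3 genes most like it, Raptor and the least like gene, Hsp20b. Saur, Cpn60a, Cpn60b and Tor are all lowest at 14 days in both panels, whereas Raptor in NO-treated axes is highest at 14 days.

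After normalisation the spread of Saur between samples was slightly under that of the median target gene. From the smallest SD, Saur ranked 6 of 18 on the deposited relative expression, 4 on the level from the cycles and 10 in the cycles themselves. The pooled SD between samples of 1 group was 0.13 on the log2 scale, both for the deposited relative expression and for the level from the cycles, against medians over the 18 target genes of 0.15 and 0.17. In the cycles themselves the SD of Saur was 0.15, against a median of 0.15.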

How the data were processed

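RNA from 18 samples of apple embryonic axes was measured by RT-qPCR; the authors used 200 ng of RNA, 40 cycles and 3 technical repetitions. The deposited Cq table holds 1 value per gene and sample. The deposited relative expression is a ratio that the authors describe as normalised to 2 reference genes and that averages about 1 in control axes of the same day. Set against the cycles with Sar1 and Pdi, it departed by a root mean square log2 of 0.21 or more in 10 of 18 genes and by 0.028 or less in the other 8, Saur among them; a second deposited ratio scales control axes to 7 days. A table of the authors' own fold comparisons was not used. Here, levels were computed as 2 to the power of the reference mean minus Cq, assuming doubling in each cycle, and log2 values without pseudocount were fitted with limma 3.58.1 in R 4.3.3 over all 6 groups and 18 target genes, with Benjamini-Hochberg adjustment over the 18 genes and a threshold of 0.05. The 12 Saur comparisons were not adjusted for each other. Control samples serve several comparisons. The fit was tested on simulated data. Saur was described in full; Tor, Raptor and the 3 most and 1 least similar genes were named by rule. Members and lists were chosen with earlier results of these data known. There are no read counts, so the number of samples limits precision. The limma p-values set each difference against the spread between samples within groups, pooled over all 6 groups and moderated across the 18 genes. Alternatives covered the reference genes, centring, an amplification factor of 1.8, a Cq filter, the linear scale, the methods' tests, a replicate block and leaving out each sample. Figures used Python 3.11.15 and matplotlib 3.10.9.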

Additional observations from a re-analysis of the deposited data

Results flagged for a closer look

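The difference in Saur between NO-treated and control axes changed between lengths of aging by a test of the change itself. It was shifted by -0.79 on the log2 scale at 14 against 7 days (limma adjusted p = 3.84e-04) and by 1.23 at 21 against 14 days (adjusted p = 9.40e-07). Both shifts rest on the same 14-day samples. Groups of 3 samples were too small to be searched for single outlying samples.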

How the results depend on the processing

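Saur in NO-treated against control axes at 14 and 21 days, the changes of that difference between 14 and 7 and between 21 and 14 days, and the steps of NO-treated axes between 14 and 7 and between 21 and 14 days kept direction and call under every alternative. At 7 days NO-treated against control axes passed with no reference gene (0.34) and with centring (0.31), and ran from 0.04 to 0.24 without single samples, never passing. The change of the difference between 21 and 7 days passed with centring (0.82), on the linear scale (0.39) and with the replicate block (0.44, limma adjusted p = 0.0453), and ran from 0.34 to 0.54 when single samples were left out. In control axes, 14 against 7 days did not pass with centring (-0.14). There, 21 against 7 days passed with Sar1 alone (-0.48), no reference gene (-0.66), the deposited 7-day scale (-0.64) and the methods' test across days (-0.36, linear), and reversed with Pdi alone (0.17) and centring (0.32), and ran from -0.23 to -0.05 without single samples. In control axes 21 against 14 days failed with Sar1 alone (0.13), the linear scale (0.18) and the methods' test (0.20, linear), and ran from 0.24 to 0.36 without single samples. In NO-treated axes 21 against 7 days reversed with Sar1 alone (-0.035) and no reference gene (-0.39), failed when fitted on the compared groups only (0.30, adjusted p = 0.104) or with the replicate block (0.30, adjusted p = 0.0512), and ran from 0.24 to 0.40 without single samples. The block changed no other Saur call. Replicate numbers did not meet the condition for pairing, a correlation above 0.1 in every same-numbered pair: 4 of 9 pairs of NO-treated and control samples of 1 day exceeded it, 7 of 9 pairs of NO-treated samples across days and 8 of 9 of control samples across days. As a hint from the data, 14 of 18 later samples correlated best with the earlier sample of their number. Of the NO-treated samples, 2 of 9 correlated best with the control of their number. Neither count was tested against the matches that random numbering would give. Genes called at 7 days numbered 6, but 10 with Pdi alone or no reference gene and 11 with centring. At 21 days there were 8, but 15 with centring. Between 21 and 7 days the change of the difference was called in 3 genes, but in up to 10 under alternatives. In control axes 21 against 14 days had 16, but 9 by the methods' test. The causes were not tested. With 3 samples a group, an exact permutation test cannot go below 0.1.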
